A study of Homo sapiens with 171 samples.

Results

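The genes described here are 40 that work in mitosis, from the kinase that starts it to the motors, kinetochore proteins and ubiquitin ligase components that carry it out. They were listed by function, and each gene is represented by the brightest (by mean level) of the probe sets annotated to its symbol alone. Of the 40, 39 were measured among 18417 genes in all. The centromere histone CENPA shares its probe set with a neighbouring gene, SLC35F6, and has no value. The mean over the 39 genes is called the mitotic mean below.

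Affymetrix arrays measured RNA of 46 ovarian cancer lines, cultured either without drug (untreated) or with cisplatin, for 48 h and at the concentration that gives the GI50 of that line. The arrays covered 167 cultures, 85 untreated and 82 treated, in 5 batches. Batches 1 to 3 held 18 lines with 3 cultures for each arm (only 2 treated for HeyA8), and batches 4 and 5 held 28 lines compared with 1 culture for each arm, plus another pair of OVCA433 and 1 untreated culture each of SKOV-3 and PA-1 that had no treated partner in its batch and was not used. Doses per line were not analysed here, and no label states that replicate cultures were independent, so the spread behind the p-values of a line may be technical.

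Cells entering mitosis need the kinase CDK1 with a B-type cyclin, and polo-like and Aurora kinases then build the spindle and attach chromosomes to it. Most of these genes are transcribed in waves late in the cell cycle, through promoter elements named CHR and CCAAT box. The CHR recruits the DREAM, B-MYB and FOXM1 complexes. Cisplatin crosslinks DNA, and such damage can hold cells in S phase or in G2 before mitosis, while the p53 target CDKN1A, a CDK inhibitor, is known for lowering this program through DREAM.

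The labels name each line as ovarian cancer. Of 11 epithelial markers, 3 to 11 lay above the array median (a median of 8 over arrays), and 1 to 3 of 10 leukocyte markers did. Of 6 pluripotency markers, 6 lay above the median in PA-1 and 5 in CH1 and in A2780, with means of 3.76, 3.58 and 2.31 above it (log2), followed by SKOV-4 at 1.97. Endothelial markers stood highest in TYK-nu, where 6 of 8 lay above the median. Over the 46 lines, 2 of 11 epithelial markers were called lower and 0 higher, against 4.72% and 4.98% of all genes. The mean change of the list was -0.76 to 0.64 per line on the log2 scale. Across lines, the mean change of the epithelial list correlated with the mitotic mean at r = 0.33 and that of the endothelial list at -0.10. For leukocyte and pluripotency markers r was -0.35 and -0.28. It was -0.25 for 10 mesenchymal and fibroblast markers, of which 3 to 9 lay above the array median. The part of these markers in the changes of the mitotic genes was not tested. Batches 1 to 3 and batches 4 and 5 lay on different scales, with upper quartiles of 7.82 to 8.08 and 5.80 to 6.59 (log2), so each change was taken within line and batch. The treated Hey array had an upper quartile of 5.80 against 6.27 in its untreated partner, and OVCAR-10 treated culture 1 and OVCA420 treated culture 3 correlated least with the other cultures of their lines, at best 0.959 and 0.982, against 0.983 or more for other arrays.

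Over the 46 lines the mitotic genes as a group did not move one way, whereas single lines moved them far in either direction. The mitotic mean was below 0 in 22 lines and above 0 in 24, with a median change of 0.01 (log2), and within 0.1 of 0 in 16 lines. Of 39 members, 2 were called lower and 0 higher (limma, Benjamini-Hochberg adjusted p under 0.05), against 4.72% of all genes called lower and 4.98% called higher. The share of members called lower was thus near that of all genes, and the share called higher was below it. Some lines are related by name or origin, and with 1 line kept of each such family 5 members were called lower and 2 higher. At an unadjusted p under 0.05, 10 members were lower and 3 higher. No share of all genes was computed for these counts or for those with 1 line of each family. The median member changed by -0.04 and the median gene by -0.01. In these bulk cultures, fewer cells in G2 or mitosis and less mitotic RNA per cell cannot be told apart.

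The members called lower were the polo-like kinase PLK1, at -0.38 ± 0.10 (SE, n = 46 lines, limma adjusted p = 0.00722), and KIF20A, a kinesin of cytokinesis, at -0.39 ± 0.10 (limma adjusted p = 0.00921). PLK1 was lower in 31 lines and KIF20A in 30. Their values across lines ran from -2.06 in Hey to 1.17 in A2780cisR for PLK1, and from -2.56 in Caov-3 to 0.76 in Caov-2 for KIF20A. Both calls were kept when any 1 line was left out, with a largest limma adjusted p of 0.013 for PLK1 and 0.0164 for KIF20A. Over the 18 replicated lines alone neither was called, with PLK1 at -0.27 (limma adjusted p = 0.0523) and KIF20A at -0.18 (limma adjusted p = 0.191). PLK1 was also not called over the 28 lines measured once (limma adjusted p = 0.0588), nor KIF20A without batch 4 (limma adjusted p = 0.0776). The number of members called lower rose from 2 to 4 without Caov-2, OVK-18 or RMG-II and to 5 without SKOV-6, through CCNB1 in each case, joined by AURKA, CDCA3 or KIF14. In all, CCNB1 was called lower without any 1 of 11 lines, these included. The number called higher rose from 0 to 3 without Hey, namely the centrosome kinase NEK2 at 0.23, the cohesion protector SGO1 at 0.23 and the microtubule depolymerase KIF2C at 0.21.

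**Figure D1:**
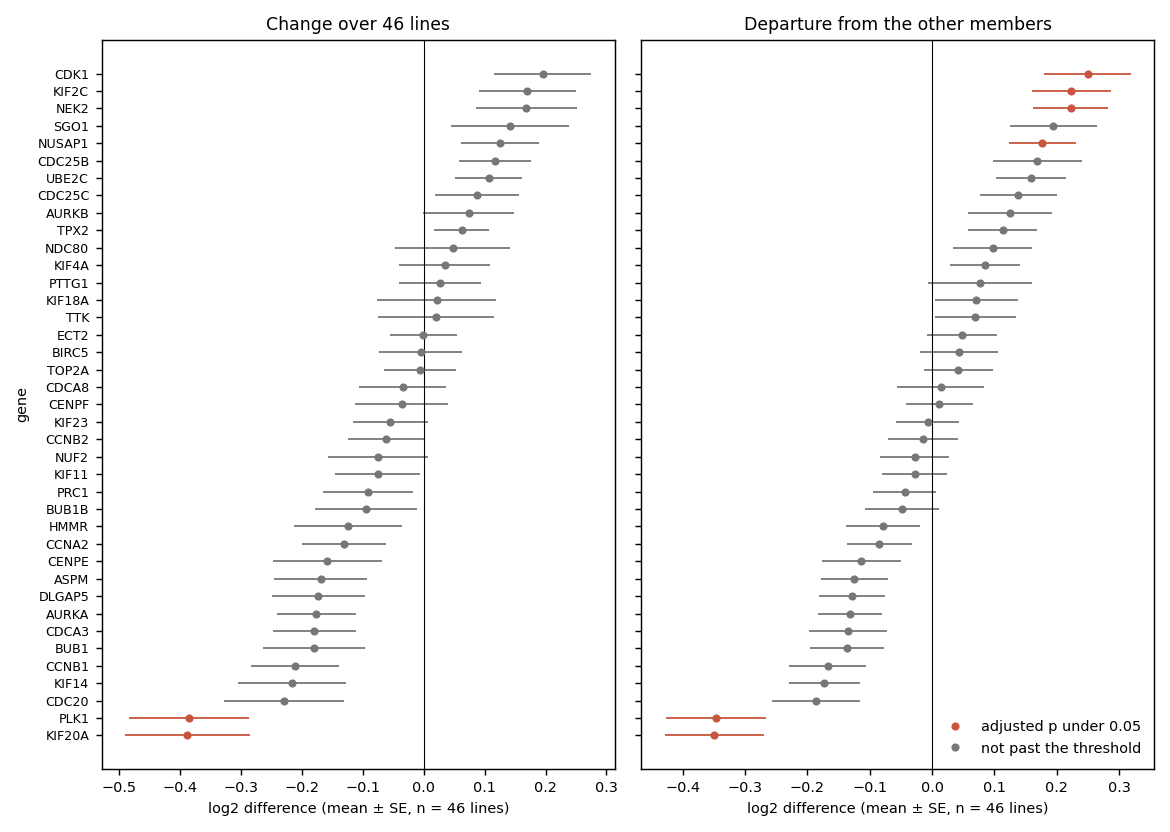
Change of each of the 39 mitotic genes over 46 lines (left) and its difference from the mean of the other 38 (right), in log2 units, as mean ± SE over lines. PLK1 and KIF20A lie lowest in both panels and past the threshold, while CDK1, KIF2C, NEK2 and NUSAP1 depart upward on the right without a call on the left.

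The members did not move as one block. Each gene's change was set against the mean of the other members in the same line, which takes out how far a line moved the whole group. PLK1 lay 0.35 ± 0.08 (SE) below the others and in 38 of 46 lines below them (limma adjusted p = 0.00436), and KIF20A lay 0.35 ± 0.08 below them in 37 lines (limma adjusted p = 0.00368). In all, 4 members lay above: CDK1 by 0.25 ± 0.07 in 38 lines, KIF2C by 0.22 ± 0.06 in 33, NEK2 by 0.22 ± 0.06 in 38 and the spindle protein NUSAP1 by 0.18 ± 0.05 in 36, with limma adjusted p-values of 0.025, 0.0272, 0.0208 and 0.0427. Of all genes, 0.907% lay below and 3.03% above the mitotic mean by the same test. These shares are not a like reference for members, whose median r with the mean was 0.82, against 0.03 for genes outside. The difference of an outside gene thus also carries the spread of the mitotic mean over lines. The calls of members were mostly not kept in parts of the lines. With the 18 replicated lines alone or without batch 4, 0 members lay below and 0 above (limma). With the 28 lines measured once, 1 lay below and 0 above. KIF20A departed by -0.13 in the replicated lines and by -0.49 in the others, and PLK1 by -0.22 and -0.43. Without TOV-21G the number above was 2, since KIF2C reached an adjusted p of 0.0503 and NUSAP1 0.0511. The departure of NUSAP1 was lost without any 1 of 20 lines, with an adjusted p of up to 0.0705.

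CDK1 and PLK1 differed in many lines. The change of CDK1 stood above that of PLK1 in 35 of 46 lines, with PLK1 lower and CDK1 higher in 18 lines and the opposite in 4. Both were lower in 13 lines and both higher in 11. These counts use the same differences as the departures above and are no separate support for them. No such count was made for other pairs of members. Across the 46 lines the change of PLK1 correlated with that of KIF20A at r = 0.81 and with that of CDC20, the activator of the anaphase-promoting complex, at r = 0.79, but with that of CDK1 at r = 0.17. These correlations are descriptions over lines that each contributed 1 difference of the same arrays.

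The promoters of 4 members are shown because PLK1 and KIF20A departed downward from the group and CDK1 and NUSAP1 upward. They cover 250 bases before to 50 after the RefSeq start (assembly GRCh38.p14), 5′ to 3′ on the gene's strand. Capitals mark TTTGAA or TTCGAA, the core of the CHR element, and CCAAT, each on either strand (TTCGAA reads the same on both, and matches of the 2 kinds may share a base).
PLK1 (chr16:23678639-23678938, plus strand): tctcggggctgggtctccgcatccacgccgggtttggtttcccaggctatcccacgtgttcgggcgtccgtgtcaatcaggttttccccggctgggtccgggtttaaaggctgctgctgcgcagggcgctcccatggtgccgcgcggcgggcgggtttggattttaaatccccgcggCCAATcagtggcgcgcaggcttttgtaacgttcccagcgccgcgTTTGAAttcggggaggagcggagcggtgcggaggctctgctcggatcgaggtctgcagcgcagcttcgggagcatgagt
KIF20A (chr5:138178862-138179161, plus strand): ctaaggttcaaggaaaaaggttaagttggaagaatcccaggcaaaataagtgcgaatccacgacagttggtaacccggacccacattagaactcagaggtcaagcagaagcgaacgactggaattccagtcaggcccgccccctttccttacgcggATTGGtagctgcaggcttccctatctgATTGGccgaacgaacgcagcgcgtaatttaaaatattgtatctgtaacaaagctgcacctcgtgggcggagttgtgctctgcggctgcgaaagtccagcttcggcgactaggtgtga
CDK1 (chr10:60778081-60778380, plus strand): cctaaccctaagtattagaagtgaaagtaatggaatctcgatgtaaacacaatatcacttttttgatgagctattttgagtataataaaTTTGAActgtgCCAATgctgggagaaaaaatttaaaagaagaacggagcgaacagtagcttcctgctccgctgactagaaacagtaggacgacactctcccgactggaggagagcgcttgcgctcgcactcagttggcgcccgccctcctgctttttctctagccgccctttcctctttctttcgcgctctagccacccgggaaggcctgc
NUSAP1 (chr15:41332631-41332930, plus strand): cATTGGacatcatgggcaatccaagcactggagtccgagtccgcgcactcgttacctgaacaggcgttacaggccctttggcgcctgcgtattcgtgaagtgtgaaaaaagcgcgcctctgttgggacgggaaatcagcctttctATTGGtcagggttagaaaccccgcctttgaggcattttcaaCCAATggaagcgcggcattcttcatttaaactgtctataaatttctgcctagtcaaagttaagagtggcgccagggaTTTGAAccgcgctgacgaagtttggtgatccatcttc
PLK1 carries 1 match of the CHR letters and 1 CCAAT, KIF20A 0 and 2, CDK1 1 and 1, and NUSAP1 1 and 3. NEK2 and KIF2C, which also departed upward but are not shown, carry 0 and 2, and 0 and 0. A link between these letters and the direction of departure was not tested. RefSeq gave a promoter for 35 of the 40 listed genes. Of these, 25 (71.4%) held TTTGAA or TTCGAA against 16.6% of 27305 promoters of this length, 28 (80%) held CCAAT against 35.7%, and 22 (62.9%) held both against 6.58%. A match is only the presence of these letters in the window.

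By role, the first group holds CDK1, its cyclins and the phosphatases that act on it. CDK1 changed by 0.20 ± 0.08 and the cyclins CCNB1 by -0.21 ± 0.07, CCNB2 by -0.06 ± 0.06 and CCNA2 by -0.13 ± 0.07 over 46 lines, none of them past the threshold, with CCNB1 at a limma adjusted p of 0.0515. The difference of CCNB1 from the other members was -0.17 over 46 lines (limma adjusted p = 0.123), with -0.29 in the lines measured once and 0.02 in the replicated lines. The phosphatases that activate CDK1 were at 0.12 ± 0.06 for CDC25B and 0.09 ± 0.07 for CDC25C. CDC25B followed the group least among this set, with r = 0.415 against the mean of the other members. Within the 18 replicated lines these 6 genes gave 20 lower and 20 higher calls of 108, where 3.68% of all combinations of a gene and a line were called lower and 4.55% higher; the same shares apply to the counts of calls by role that follow.

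The mitotic and checkpoint kinases gave 37 lower and 22 higher calls of 126 in the replicated lines. AURKA, the spindle pole kinase, was at -0.18 ± 0.07 over 46 lines, the checkpoint kinase BUB1 at -0.18 ± 0.08 and its relative BUB1B at -0.09 ± 0.08. AURKB, kinase of the chromosomal passenger complex, was at 0.07 ± 0.07 and the checkpoint kinase TTK at 0.02 ± 0.10. BUB1 was called lower in 8 replicated lines and higher in 3, PLK1 lower in 9 and higher in 2. NEK2 was at 0.17 ± 0.08 over 46 lines and was called lower in 3 lines and higher in 4.

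Among the passenger and cohesion genes, SGO1 was higher in 33 of 46 lines, at 0.14 ± 0.10, while CDCA8 was at -0.03 ± 0.07 and BIRC5 (survivin) at -0.01 ± 0.07. They gave 16 lower and 9 higher calls of 54. The kinetochore genes NDC80, NUF2, CENPE and CENPF gave 20 lower and 14 higher calls of 72, with changes over 46 lines from -0.16 ± 0.09 for the motor CENPE to 0.05 ± 0.09 for NDC80. Of the kinesins, KIF14 was at -0.22 ± 0.09, KIF11, which pushes the spindle poles apart, at -0.08 ± 0.07 and KIF2C at 0.17 ± 0.08. KIF2C was called higher in 8 replicated lines, the most of any member, and lower in 4.

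Spindle and cytokinesis genes followed the other members at r of 0.78 to 0.93, and the kinetochore genes at 0.83 to 0.90. PRC1, which bundles the central spindle, had the highest r with the other members, 0.93, and TPX2, an activator of AURKA, had the smallest SD over lines, 0.30. Of the ligase genes, CDC20 was at -0.23 ± 0.10 and lower in 31 lines, while the ubiquitin-conjugating enzyme UBE2C was at 0.11 ± 0.05 and higher in 29. PTTG1 (securin) barely followed the group over 46 lines (r = 0.19), with r = 0.83 over the replicated lines and 0.09 over the 28 lines measured once. TOP2A, the topoisomerase that untangles sister chromatids, was at -0.01 ± 0.06. Over all 741 pairs of members the median correlation across lines was 0.65, and 0.57 without Hey and SKOV-6, the lines farthest from the median of the mitotic mean.

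Every one of the 39 members responded differently between the 18 replicated lines (F test, limma adjusted p under 0.05), as did 51% of all genes. Across the 702 combinations of a member and a replicated line, treated and untreated cultures did not overlap in 251 below and 175 above, or 276 overlapping, against 12.1% of all combinations of a gene and a line below and 13.1% above. Summed over the lines, members were called lower 181 times and higher 128 times of 702, against the 3.68% and 4.55% of all combinations given above. These sums were 86 and 45 without replicate 2, 115 and 77 without replicate 3, and 82 and 55 with each line fitted alone. On the level of the mitotic mean, the treated cultures lay below all untreated cultures in 7 lines, above them in 3, and overlapped in 8. The pooled SD between cultures of a line and arm was 0.06.

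**Figure D2:**
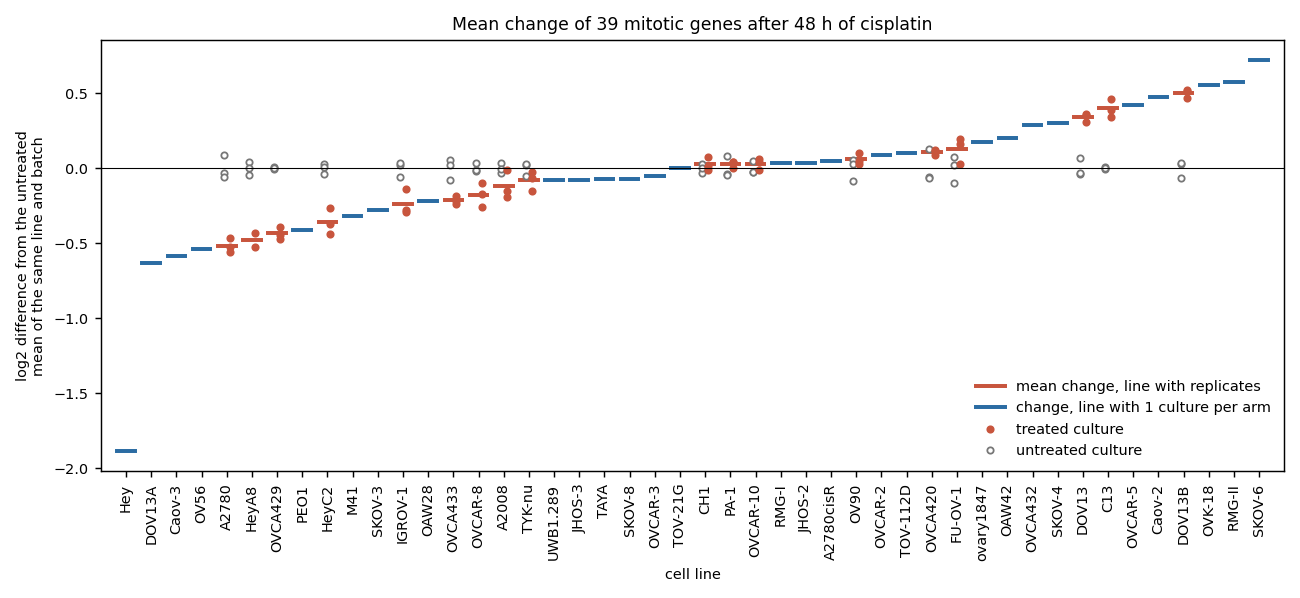
Mean change of the 39 mitotic genes in each of 46 lines, in log2 units relative to the untreated mean of the same line and batch. Bars are the change of a line, open points untreated and filled points treated cultures of the 18 replicated lines; A2780 is lowest of these at -0.52 and DOV13B highest at 0.50, while Hey, measured once per arm, is at -1.89.

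A2780 lowered the group most among the replicated lines. Its mitotic mean lay at 8.91 to 9.06 in untreated and 8.41 to 8.50 in treated cultures, a change of -0.52. In it 34 of 39 members were called lower and 0 higher (0 also at an unadjusted p under 0.05), against 1.82% and 1.72% of all genes. PLK1 stood at 10.58, 10.70 and 10.52 in the untreated cultures and 9.82, 9.86 and 9.71 in the treated ones. These do not overlap, and PLK1 fell by 0.80 ± 0.10 (SE, limma adjusted p = 4.3e-09). KIF14, a kinesin of the midbody, fell by 0.84 and AURKB by 0.77. CDK1, in contrast, overlapped, at 7.33, 7.80 and 7.50 untreated and 7.24, 7.43 and 7.20 treated (limma adjusted p = 0.373).

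HeyA8 lowered 33 members and raised 0 (0 unadjusted), against 7.8% and 5.89% of all genes. Its leading member was the kinetochore gene NDC80, at -0.90 ± 0.13, followed by CDCA3 at -0.77. CDK1 stood at 9.60, 9.73 and 9.25 untreated and 9.08 and 8.87 treated, and CCNB1 at 11.90, 11.95 and 11.82 against 11.48 and 11.27. Neither gene overlapped between the arms, and HeyA8 was the only replicated line in which CDK1 was called lower (-0.55 ± 0.14, limma adjusted p = 0.00354). Without treated culture 3, which leaves 1 treated culture that is assumed to vary like the others, 18 members were called lower. HeyC2, which shares the Hey name, lowered 28 and raised 0 (0 unadjusted), against 2.3% and 2.83% of all genes, and 18 without treated culture 2. In HeyC2 BUB1 fell by 0.64 ± 0.07, and PLK1 lay at 10.91, 10.88 and 10.97 untreated and 10.44, 10.42 and 10.46 treated, with no overlap. KIF20A overlapped there, with its highest untreated culture at 10.07 and its treated ones at 9.80, 9.71 and 10.09 (limma adjusted p = 0.408).

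OVCA429 lowered 28 members and raised 0 (0 unadjusted), against 1.66% and 2.25% of all genes. CDCA3, a trigger of mitotic entry, fell by 0.99 ± 0.11 and CDC25C by 0.73. KIF20A stood at 9.19, 9.17 and 9.03 untreated and 8.43, 8.44 and 8.42 treated, and TOP2A at 9.80, 9.85 and 9.69 against 9.43, 9.27 and 9.39. Both genes were lower in every treated culture. NUSAP1 was at 0.03 and CDK1 at -0.14, neither past the threshold. The group was also lower in IGROV-1, where 16 members were called lower and 0 higher (0 unadjusted) against 5.27% and 1.69% of all genes, led by KIF4A at -0.57 ± 0.09. In IGROV-1, 7 members were called without untreated culture 1 or treated culture 1 or 2, and 9 without untreated culture 2. OVCA433 had 9 called lower and 0 higher (0 unadjusted), against 1.83% and 0.852%, and 5 without treated culture 1. Its mitotic mean changed by -0.21 in batch 2 and -0.20 in batch 4.

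DOV13B raised the group most among the replicated lines, by 0.50. Its mitotic mean went from 9.21 to 9.30 in untreated cultures to 9.74 to 9.79 in treated ones, and 34 members were called higher and 0 lower (0 unadjusted), against 1.03% and 0.424% of all genes. CDK1 stood at 8.69, 8.53 and 8.64 untreated and 9.12, 9.15 and 9.13 treated. PLK1 stood at 9.62, 9.56 and 9.68 against 10.11, 10.23 and 10.52. Both were higher in every treated culture, and PLK1 rose by 0.66 ± 0.10 (SE, limma adjusted p = 1.95e-06). The spindle gene HMMR rose by 0.76 and NEK2 by 0.75.

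C13 raised 28 members and lowered 0 (0 unadjusted), against 10.3% and 7.34% of all genes. KIF2C rose by 0.89 ± 0.08 (SE, limma adjusted p = 8.46e-14) and KIF18A, which dampens chromosome movement, by 0.79. TOP2A stood at 10.30, 10.43 and 10.32 untreated and 11.09, 11.14 and 11.17 treated, with no overlap. CCNB1 stood at 12.01, 12.03 and 11.88 against 12.43, 12.41 and 12.26. PTTG1 was at -0.01 and CDCA3 at -0.06, and neither was called. DOV13 raised 24 and lowered 0 (0 unadjusted), against 2.64% and 0.668% of all genes, led by HMMR at 0.79 ± 0.12 and TTK at 0.71 ± 0.12. There PLK1 overlapped (10.37, 10.17 and 9.98 untreated, with treated cultures up to 10.24), whereas CDK1 did not (8.83, 8.81 and 9.02 against 9.39, 9.38 and 9.58). In DOV13, 12 members were called higher without untreated culture 1 and 14 without untreated culture 2 or treated culture 3.

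Other lines moved single members in opposite directions. In OVCAR-8, OV90 and OVCA420, PLK1 and KIF20A were called lower while CDK1 was called higher. In OVCAR-8 the mitotic mean changed by -0.18, with every treated culture below the untreated ones. This line had 11 members lower and 2 higher, against 4.3% and 9.12% of all genes, so that its share of higher members lay below the background. In OVCAR-8 PLK1 stood at 10.84, 10.51 and 10.43 untreated and 9.87, 9.51 and 9.60 treated, a fall of 0.94 ± 0.10 (SE), and KIF20A fell by 0.87. CDK1 went from 9.31, 9.37 and 9.37 to 9.70, 10.18 and 9.78, with no overlap, and changed by 0.54 ± 0.13 (limma adjusted p = 0.00143). The kinetochore gene NDC80 was the other member called higher, at 0.37. In OVCAR-8, 0 members were called higher without treated culture 2, and 1 without untreated culture 1 or 2.

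OV90 had 3 members lower and 4 higher, against 1.8% and 1.12% of all genes. PLK1 went from 10.40, 10.62 and 10.65 to 9.85, 9.98 and 9.95, and CDK1 from 9.32, 9.52 and 9.38 to 9.84, 9.89 and 9.91. Neither gene overlapped between the arms. NUSAP1 rose by 0.55 ± 0.10 and KIF2C by 0.33. OVCA420 had 2 lower and 10 higher, against 4.53% and 6.96%, so that its share of lower members was near the background. Its PLK1 went from 10.58, 10.57 and 10.66 to 10.12, 9.97 and 10.21, and its CDK1 from 8.97, 8.53 and 8.54 to 9.08, 9.23 and 9.10, again with no overlap. ECT2, the exchange factor that starts the cleavage furrow, rose by 0.43 and TTK by 0.39. In OVCA420, 4 members were called higher without untreated culture 2 or 3 and 6 without treated culture 1 or 2. In OV90, 1 member was called lower without untreated culture 2 or 3 or treated culture 1 or 2, and 1 was called higher without treated culture 3 and 2 without untreated culture 3 or treated culture 1 or 2. Counting single genes over all 18 lines, PLK1 was below with no overlap in 11 lines and above in 3, CDK1 below in 1 and above in 7. Of all combinations of a gene and a line, 12.1% were below and 13.1% above with no overlap. The counts of PLK1 above and CDK1 below were thus near or under these shares. Both at once, PLK1 below and CDK1 above, held in 4 lines, the fourth being FU-OV-1. No share over other pairs of genes was computed for this joint count.

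**Figure D3:**
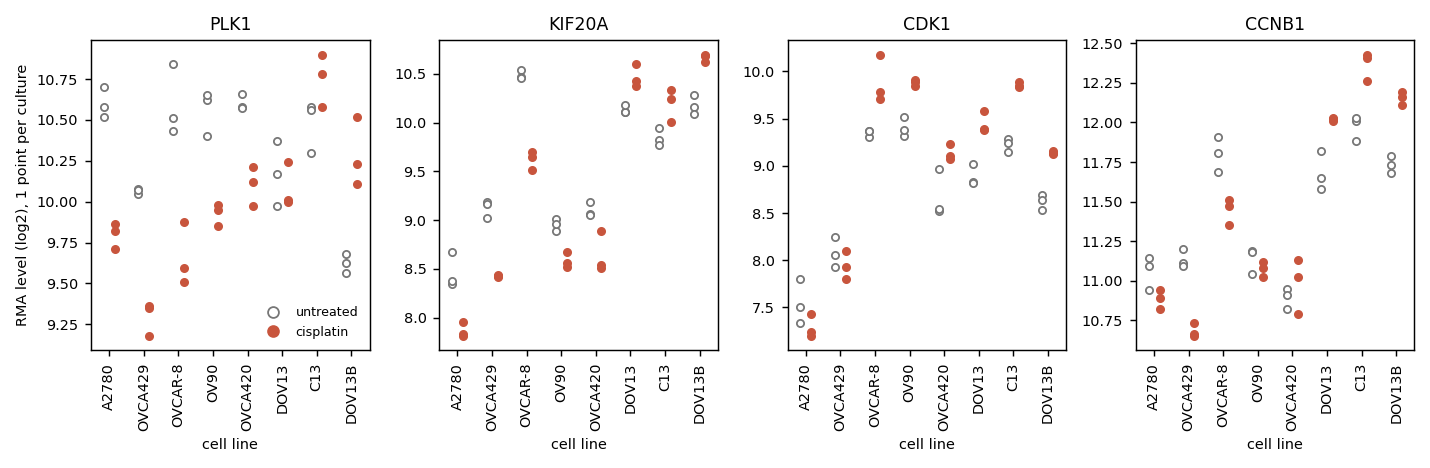
RMA level (log2) of PLK1, KIF20A, CDK1 and CCNB1 in each untreated (open) and treated (filled) culture of 8 lines. PLK1 lies lower in the treated cultures of A2780, OVCA429, OVCAR-8, OV90 and OVCA420, whereas CDK1 overlaps in the first 2 of these and lies higher in the last 3.

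PA-1 and FU-OV-1 had calls in both directions, with a mean change of 0.03 and 0.13. PA-1 had 8 lower and 9 higher, against 10.8% and 12% of all genes. Of the chromosomal passenger genes, AURKB fell there by 0.77 ± 0.10 (SE, limma adjusted p = 1.25e-08) and CDCA8 by 0.50, while BIRC5 was at -0.15 and not called. CDC20 fell by 0.54. Of the 4 kinetochore genes, CENPE rose by 0.57 ± 0.15, NUF2 by 0.43 and CENPF by 0.21, while NDC80 was at 0.19 and not called. SGO1 rose by 0.56. In PA-1, 5 members were called lower and 5 higher without untreated culture 2, and 4 and 5 without treated culture 2 or 3.

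FU-OV-1 had 5 lower and 14 higher, against 10.5% and 17.3% of all genes, so that its share of lower members was near the background. There CENPE fell by 0.66 ± 0.15 (SE, limma adjusted p = 0.000326), HMMR by 0.39 and ASPM by 0.36, while BIRC5 rose by 0.70 ± 0.08, CDCA3 by 0.68 and AURKB by 0.66. PLK1 went from 10.79, 10.86 and 10.85 to 10.60, 10.78 and 10.73, which was not past the threshold, and CDK1 from 9.53, 9.32 and 9.52 to 9.79, 9.91 and 10.04. The opposite signs of AURKB and CENPE in PA-1 and FU-OV-1 were not tested against each other. In FU-OV-1, 9 members were called higher without untreated culture 2, and 3 lower without untreated culture 1 or 3 or treated culture 1.

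Few members moved in the remaining 4 lines. A2008 had 4 lower and 1 higher, against 3.39% and 1.76% of all genes, led by CDCA3 at -0.46 ± 0.11, and 0 higher without treated culture 1 or 2. TYK-nu had 0 called lower and 0 higher (limma), where 0.0217% and 0.0543% of all genes were called, and 2 lower without untreated culture 3. At an unadjusted p under 0.05, for which no share of all genes was computed, 10 members were lower there and 2 higher. CH1 had 0 lower (0 unadjusted) and 1 higher, KIF2C at 0.31, against 0.527% and 1.45%. OVCAR-10 had 0 lower (0 unadjusted) and 1 higher, CDC25C at 0.32, against 1.25% and 2.93%. In the fits with cultures left out, the call in CH1 remained only without untreated culture 3, and that in OVCAR-10 only without untreated or treated culture 3.

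**Figure D4:**
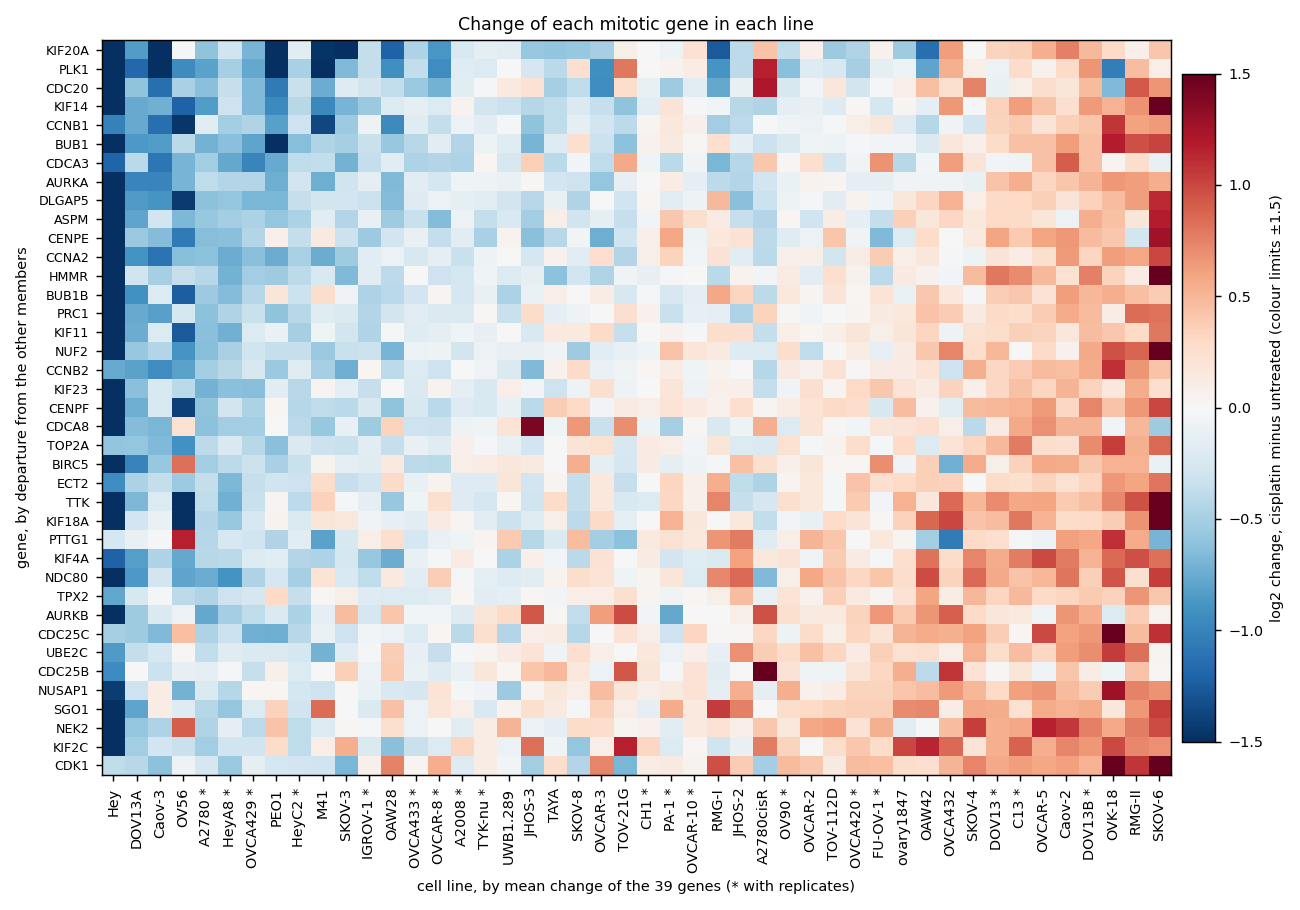
Change (log2, cisplatin minus untreated) of each of the 39 mitotic genes (rows, by their departure from the other members) in each of 46 lines (columns, by mean change), with colours limited to ±1.5. The upper rows, with KIF20A and PLK1, stay blue farther to the right than the lower rows, with CDK1, KIF2C and NEK2; in SKOV-6, RMG-II and OVK-18 most rows are red.

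The lines measured once per arm reached wider, with no replicate check. In Hey 36 members were lower by over 1.5-fold and 0 higher, but 36.3% of all genes were lower by that much there, and the array scale of that treated culture stood apart as given above. SGO1 was lowest in Hey at -3.66 and PTTG1 highest at -0.26, with a mean of -1.89, or -1.27 after quantile normalization. DOV13A lowered 22 members by over 1.5-fold, against 5.8% of all genes, with PLK1 at -1.18. Caov-3 lowered 17, against 5.98%, with KIF20A at -2.56, PLK1 at -1.86 and NUSAP1 at 0.12. At the other end, 17 members in OVK-18, 21 in RMG-II and 25 in SKOV-6 were higher by over 1.5-fold, against 8.86%, 4.94% and 15.8% of all genes. CDK1 was the highest member in each of these 3 lines, at 1.81, 1.07 and 1.69. PLK1 was the lowest in OVK-18, at -1.03.

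Related lines were compared directly, as the difference of their responses. C13 is known as a cisplatin-resistant derivative of the line named A2008 here, and they were run in batches 3 and 2. The response differed in 27 members, each higher in C13, against 4.82% of all genes that differed in either direction. BUB1 fell by 0.44 in A2008 and was at 0.43 in C13, a difference of 0.87 ± 0.09 (SE, limma adjusted p = 1.97e-10), and HMMR differed by 0.98 ± 0.17. PTTG1 was among the 12 that did not pass, at a difference of 0.06 (limma adjusted p = 0.802). The count was 4 without culture 2 of each group and 2 with this pair of lines fitted alone.

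PA-1 and CH1, which is known from genotyping to match PA-1, were run in batches 1 and 2. They differed in 7 members, 4 lower and 3 higher in PA-1, against 8.12% of all genes. AURKB differed by -0.73 ± 0.14 (SE, limma adjusted p = 0.0014) and SGO1 by 0.69 ± 0.19. The count ranged from 0 without culture 2 or culture 3 to 16 without culture 1. DOV13B and DOV13, in batches 3 and 2, differed in 1 member, against 0.0814% of all genes: PLK1 rose in DOV13B and was at -0.09 in DOV13, a difference of 0.75 ± 0.14 (SE, limma adjusted p = 0.00488), a call not kept without culture 2 or culture 3 of each group. DOV13A, measured once, lowered the group by 0.63 while DOV13 and DOV13B raised it. HeyA8 and HeyC2, both in batch 1, differed in 0 members by limma (4 at an unadjusted p under 0.05), against 0.755% of all genes, with a mean difference of -0.12.

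Genes outside the list that followed the mitotic mean best were CDCA2, NCAPH, ARHGAP11A, HJURP and CKAP2L, with r of 0.91, 0.89, 0.89, 0.88 and 0.87 over 46 lines. In all, 22 genes outside the list reached an r of 0.8, and the median r of genes outside was 0.03. The transcription factor FOXM1, known to activate such genes, changed with the mitotic mean at r = 0.76, or 0.57 without Hey and SKOV-6, and the proliferation marker MKI67 at 0.68, or 0.47. Over the 46 lines FOXM1 itself was at 0.05 ± 0.08 and MKI67 at 0.06 ± 0.07, neither past the threshold. FOXM1 was called lower in A2780 (-0.55 ± 0.10), HeyC2 (-0.53) and HeyA8 (-0.47) and higher in DOV13B (0.48), OV90 (0.44) and FU-OV-1 (0.75), but was not called in OVCA429 (-0.15), which lowered 28 members, nor in C13 (0.13) or DOV13 (0.08), which raised 28 and 24. MYBL2, which encodes B-MYB, was at 0.18 ± 0.08 with r = 0.355.

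Other cell-cycle lists moved with the group to different degrees. Of 59 further G2 and M genes, 4 were called lower and 3 higher over 46 lines, among them G2E3 at -0.30 ± 0.08 and SKA1 at 0.25 ± 0.07. These counts were near the shares of all genes, 4.72% lower and 4.98% higher, which also apply to the lists that follow. The mean of the 59 genes followed the mitotic mean at r = 0.92. Of 33 S phase and replication genes, 1 was called lower (the helicase subunit MCM6, -0.30 ± 0.08) and 6 higher (among them GINS4, 0.32 ± 0.08, and GINS3, 0.27 ± 0.06), and their mean followed the mitotic mean at r = 0.54, or 0.23 without Hey and SKOV-6. Of 10 G2 checkpoint genes 0 were lower and 1 higher (CDC25A, 0.29 ± 0.10), and of 12 RB family and DREAM genes 1 was lower (E2F5, -0.22 ± 0.05) and 1 higher (LIN37, 0.22 ± 0.05). Among these lists the p53 effectors had the highest share of calls, 0 of 11 lower and 7 higher, such as CDKN1A at 0.63 ± 0.08, E2F7 at 0.54 ± 0.09 and GADD45A at 0.51 ± 0.08.

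The lines that lowered the mitotic genes did so with and without the S phase genes. In HeyA8, HeyC2, IGROV-1 and OVCA433, 29, 17, 16 and 15 of the 33 S phase genes were called lower and 0 higher. Of all genes, 7.8%, 2.3%, 5.27% and 1.83% were called lower in these lines, and 5.89%, 2.83%, 1.69% and 0.852% higher. In OVCA429 1 was called lower and 13 higher, against 1.66% and 2.25% of all genes. In A2780 2 were called lower and 4 higher, against 1.82% and 1.72%. C13, where mitotic genes rose, had 9 S phase genes lower and 0 higher, against 7.34% and 10.3% of all genes. FU-OV-1 had 0 lower and 30 higher, against 10.5% and 17.3%, and OV90 0 lower and 17 higher, against 1.8% and 1.12%.

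CDKN1A rose in lines of both kinds. It rose by 1.56 ± 0.16 (SE) in HeyA8, by 1.22 ± 0.15 in A2780 and by 1.26 in OVCA429, which lowered the mitotic genes, and by 1.11 ± 0.15 in C13, 0.89 in DOV13 and 0.70 in DOV13B, which raised them. Its change and the mitotic mean correlated at r = -0.02 over 46 lines, or -0.29 without Hey and SKOV-6. Within batches r was -0.80 over the 7 lines of batch 1, -0.04 over the 6 of batch 2, -0.52 over the 11 of batch 4 and 0.21 over the 17 of batch 5; the 5 lines of batch 3, with C13 and DOV13B, are too few for a value. In Hey, the line with the lowest mitotic mean, CDKN1A was at -0.78.

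**Figure D5:**
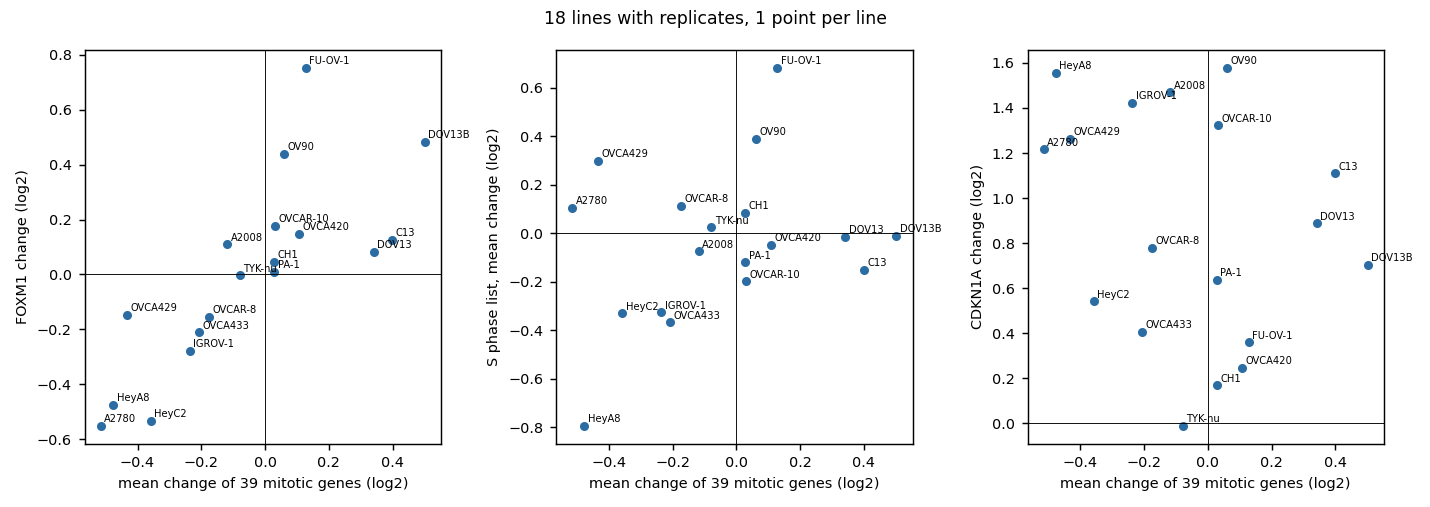
Change of FOXM1, mean change of 33 S phase genes and change of CDKN1A (all log2) against the mean change of the 39 mitotic genes in the 18 replicated lines, 1 point per line. FOXM1 is higher toward the right, S phase genes lie on either side of 0 among lines with a low mitotic mean, and CDKN1A is above 1 in both HeyA8 and C13.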

How the data were processed

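Total RNA of 167 cultures was hybridised on 171 Affymetrix Gene 1.0 ST arrays, of which 4 repeat a culture and were averaged with it; 165 cultures were used. The deposited values are log2 levels that the authors made by RMA, per the submitters' processing notes; the version is not given in the sources used here. Probe sets of 1 gene symbol gave 18417 genes, each by its probe set with the highest mean. Precision is limited by the number of arrays.

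With limma 3.58.1 in R 4.3.3, 1 difference per line (cisplatin minus untreated, same batch) was tested against 0 over 46 lines, as was its difference from the mean of the other members. Cultures of the 18 replicated lines were fitted as a mean per line and arm (107 cultures, 71 residual degrees of freedom), with contrasts within lines, between lines and between related lines. P-values were adjusted by Benjamini-Hochberg over all genes, with a threshold of 0.05. Lines measured once were counted at 1.5-fold. The code was tested on simulated data.

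Members and gene lists were chosen with earlier results of these data known. Named genes were the members, the 4 largest called changes of each list, CDKN1A, E2F7, FOXM1, MYBL2 and MKI67, and the 5 genes most like the mitotic mean; lines shown by culture were the 4 lowest and 3 highest, and OVCAR-8, OV90, OVCA420, PA-1 and FU-OV-1 were added after their values were seen. Same-numbered cultures did not pair: 7 of 53 correlations of their deviations passed 0.1.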

Additional observations from a re-analysis of the deposited data

Results flagged for a closer look

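The response to cisplatin differed between the 18 replicated lines in 39 members (limma F test, adjusted p under 0.05). Between related lines, the interaction test in limma gave 27 members between C13 and A2008, 7 between PA-1 and CH1, and 1, PLK1, between DOV13B and DOV13. Each of these pairs lies in different batches, and although each change was taken within its own batch, batch and line cannot be told apart in the difference.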

How the results depend on the processing

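Over the 46 lines, the counts of members were 2 lower, 0 higher, 2 below the mitotic mean and 4 above it. With replicated lines only they were 1 lower, 0 below and 0 above, with 9 lines below 0; with lines measured once only, 1 lower, 1 below and 0 above, with 13 lines below 0; without batch 4, 1 lower, 0 below and 0 above. Keeping 1 line of each family gave 5 lower, 2 higher and 4 below. Batches 1, 2, 3 and 5 alone, added after seeing the data, each gave 0 lower, 0 below and 0 above, and batch 4 alone 0 lower, 1 higher, 1 below and 0 above. Quantile normalization gave 2 above, 3 members between DOV13B and DOV13 and 13 between PA-1 and CH1; testing only genes above the median level gave 5 above and the same counts, 3 and 13, for these pairs; centring arrays on their median gave 4 between PA-1 and CH1. With the replicate number as a block there were 162 lower and 114 higher calls, 24 members between C13 and A2008 and 4 between PA-1 and CH1. Fitting each line alone gave 82 lower and 55 higher calls, against 181 and 128, and fitting each pair alone 2 members between C13 and A2008, 0 between DOV13B and DOV13 and 0 between PA-1 and CH1; these fits have fewer residual degrees of freedom, and the cause of the other shifts was not tested. Without the arrays of OVCAR-10 and OVCA420 that stand apart there were 3 lower over 46 lines and 187 lower and 128 higher calls. Leaving out each replicate or line gave 2 to 5 lower, 0 to 3 higher, 2 to 3 below and 2 to 5 above. Leaving out each replicate gave 22 to 23 lines below 0, 86 to 136 lower and 45 to 105 higher calls, 38 to 39 members differing between lines, 4 to 22 between C13 and A2008, 0 to 1 between DOV13B and DOV13, and 0 to 16 between PA-1 and CH1. No called value changed direction under the alternatives run, while the mitotic mean of PA-1, SKOV-8 and TOV-21G, each a value with no test, changed sign under quantile normalization, and that of JHOS-2 with arrays centred on their median.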
